A study of Homo sapiens with 3 samples.

Results

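The circRNAs described here were those of protein-coding host genes whose 2 ends lay 10 to 50 kb apart on the genome. They were taken from the deposited circRNA table as all entries with an NM_ accession for the host, a position on chromosomes 1 to 22 or X, and a distance from start to end of at least 10 kb and under 50 kb. This gave 30154 of 92509 circRNAs (32.6%), or 34.5% of the 87385 circRNAs of coding hosts on these chromosomes. They came from 6511 host genes, with a median of 3 circRNAs per host, and 2082 hosts had only 1 while 745 had at least 10. The median span was 20.7 kb, and 15098 circRNAs lay on the plus strand and 15056 on the minus strand. Since 73.1% of them shared a start or an end with another circRNA of the same set, many overlap in position and are not independent measurements.

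The RNA-Seq data comprised 3 human cell lines with 1 library each. BEAS-2B cells derive from normal bronchial epithelium and were immortalized, A549 cells come from a lung adenocarcinoma whose EGFR gene is wild type, and HCC827 cells come from a lung adenocarcinoma that carries an activating mutation in the kinase domain of EGFR. All were grown in DMEM with 10% fetal bovine serum and no treatment is listed, and ribosomal RNA was removed before sequencing. Sets of 3 values are given throughout in the order BEAS-2B, A549 and HCC827. The study sought circRNAs that differ between normal and cancer cells and between cancer cells with and without the EGFR mutation. With 1 library per line, a difference could not be set against replicate error, so no test was run and each value below stands without an error, and both comparisons with BEAS-2B use the same BEAS-2B library.

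A circRNA forms when the spliceosome joins the downstream end of an exon back to the upstream end of the same or an earlier exon, a step called back-splicing. The closed loop has no free ends and resists exonucleases, so it can outlast the linear mRNA of its host. Back-splicing across a long distance usually encloses several exons and introns of the primary transcript, and most introns are then removed, so that the mature loop is much shorter than the distance between its ends. The genomic span used here is therefore not the length of the RNA. Pairing between inverted repeats in the flanking introns, and RNA-binding proteins such as QKI, bring the ends together, whereas ADAR and DHX9 counteract such pairing.

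The circRNA values were TPM as deposited, transcript abundances scaled to a common library total, which keep no counts, so that neither the depth of a library nor the counting error of a value is known. The HCC827 library stood apart. In this size range 1624 circRNAs were above 0 TPM in HCC827, against 15849 in BEAS-2B and 16243 in A549, and values above 0 had a median of 44.1 TPM there against 4.49 and 3.97 TPM. Values above 0 but under 0.01 TPM numbered 1519, 1588 and 56, so a value above 0 was not read as detection. Because a nearly equal total was spread over fewer circRNAs in HCC827, ratios to this line are given as deposited and again after median-of-ratios scaling, in which each line was divided by its typical ratio to the geometric mean profile of the 1988 circRNAs above 5 TPM in every line. Over these 1988, the ratio of HCC827 to BEAS-2B had a median of 2.79 (1.48 as log2), and that of A549 to BEAS-2B a median of 0.8996 (-0.15 as log2). The way in which reads of a loop were kept apart from reads of the linear host RNA is not given in the sources used here, so a circRNA value may hold linear RNA, which was not tested. In such bulk RNA, fewer cells with a circRNA and fewer copies per cell cannot be told apart. Epithelial markers differed between the lines in the mRNA table, where levels are fragments scaled by transcript length and library (FPKM) and low genes stand at a floor of 1. EPCAM and CDH1 stood at this floor in BEAS-2B and reached 166 and 198 FPKM in HCC827, and VIM, a mesenchymal filament, was at 411, 173 and 1.47 FPKM. KRT8, an epithelial keratin, was present in all 3 lines (282, 1419 and 91.6 FPKM) and lowest in HCC827. The keratins KRT18 and KRT19 were instead lowest in BEAS-2B and highest in HCC827, with KRT19 at 1.84, 28.7 and 697 FPKM. The keratin KRT5 and the leukocyte gene PTPRC stood at the floor in each line. Of the genes of alveolar type 2 cells and lung adenocarcinoma, SFTPB and SFTPC stood at the floor in each line, while NKX2-1 was at 1, 1 and 9.92 FPKM and NAPSA at 1, 1.14 and 34.5 FPKM.

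Most circRNAs of this size range were not detected above the study's level of 5 TPM. In BEAS-2B 7513 (24.9%) exceeded it, in A549 7222 (24.0%) and in HCC827 1411 (4.68%), while 20724 (68.7%) exceeded it in none of the lines. Over all circRNAs these shares were similar, at 23.4%, 22.7%, 4.65% and 70.4%. The largest pattern among the rest was presence in BEAS-2B and A549 without HCC827, with 5185 circRNAs (17.2%, beside 16.4% over all circRNAs). BEAS-2B alone accounted for 1544 (5.12%, beside 4.63% over all), A549 alone for 1290 (4.28%, beside 3.94%) and HCC827 alone for 563 (1.87%, beside 2.02%). Above it in BEAS-2B and HCC827 were 101 (0.335%, beside 0.277%), and in A549 and HCC827 64 (0.212%, beside 0.212%). All 3 lines were above 5 TPM for 683 circRNAs (2.27%) from 626 host genes, which are called detected below. This share was 2.15% over all circRNAs, 1.01% for coding hosts under 1 kb, 2.87% for 1 to 10 kb and 1.26% for over 50 kb. The 10 to 50 kb circRNAs held 19.4%, 18.9% and 15.4% of all TPM in BEAS-2B, A549 and HCC827, whereas the class of 1 to 10 kb held 44.6%, 42.8% and 50.2%. Without the 1% most abundant circRNAs of the table the shares of the range were 26.96%, 26.99% and 30.35%, so that HCC827 went from the lowest to the highest. With all circRNAs kept, 32.6% of the listed circRNAs carried at most 19.4% of the signal in a line.

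Detection and level were lower at the longer distances of the range, although 40 to 50 kb was not below 30 to 40 kb in detection or in HCC827 level. Of circRNAs spanning 10 to 20 kb 2.54% were detected, of those of 20 to 30 kb 2.197%, of 30 to 40 kb 1.79% and of 40 to 50 kb 1.89%. Over the same steps the median of the detected circRNAs went from 22.8 to 21.7, 17.8 and 17.3 TPM in BEAS-2B, from 22.2 to 19.6, 18.4 and 15.9 TPM in A549, and from 67.7 to 57.5, 41.2 and 43.7 TPM in HCC827. The limits of the range marked no step. Just below it, 3.07% of 2054 circRNAs of 9 to 10 kb were detected, and just inside it 3.26% of 1933 of 10 to 11 kb. At the upper limit, 2.65% of 264 circRNAs of 49 to 50 kb and 2.86% of 245 of 50 to 51 kb were detected. By chromosome, the detected share of the circRNAs in the range ran from 0.592% on chromosome 13 to 3.36% on chromosome 20.

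**Figure D1:**
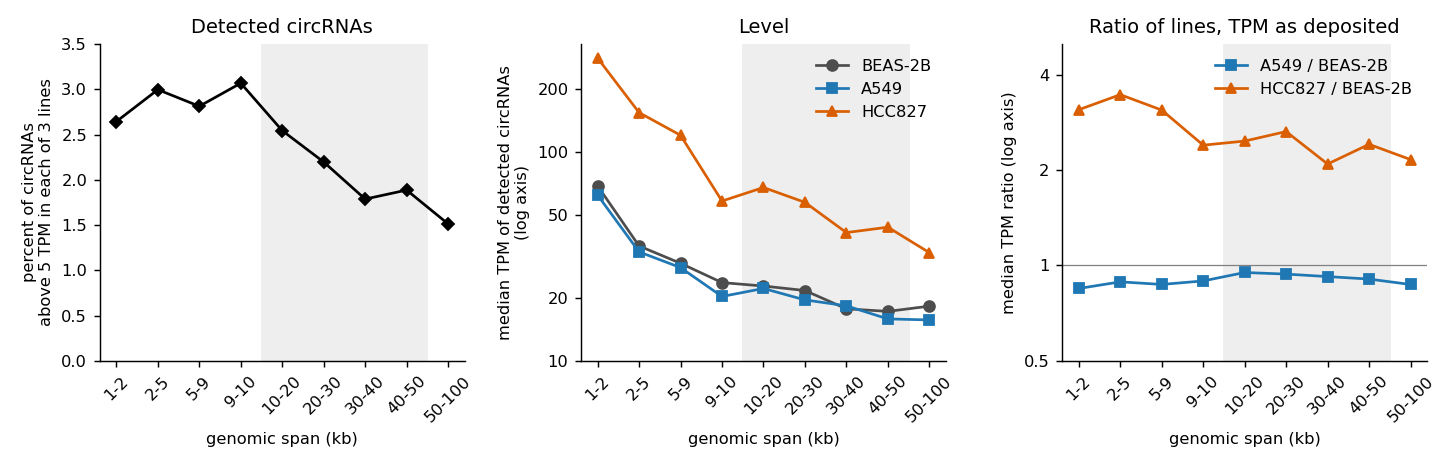
Detection (percent of circRNAs above 5 TPM in each line), median TPM of detected circRNAs (log axis) and median TPM ratio of lines (log axis, as deposited) against genomic span in kb for coding hosts. Grey marks 10 to 50 kb, where detection goes from 2.54% to 1.89% and the HCC827 median from 67.7 to 43.7 TPM, while the A549 to BEAS-2B ratio stays near 0.9.

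Among the 10 circRNAs of the range with the highest mean, only some were high in every line. The highest mean level was that of hsa_circ_0031659 of PSMA6, an alpha subunit of the proteasome core, at 523, 642 and 2448 TPM. It lay at chr14:35761573-35777294 on the plus strand, in the coordinates of the table (hg19), and was the only circRNA listed for PSMA6. The host mRNA did not follow this order, with 113, 144 and 98.3 FPKM. hsa_circ_0007000 of CD59, a membrane inhibitor of complement, was at 651, 325 and 1195 TPM, and hsa_circ_0036183 of PKM2, the glycolytic pyruvate kinase of proliferating cells, at 666, 809 and 469 TPM. hsa_circ_0002781 of C9orf82 was at 203, 194 and 1635 TPM. These 4 were high in every line, while the other 6 of the 10 highest were either 0 in a line or shared their values. hsa_circ_0084606 of ASPH, an aspartate hydroxylase of the endoplasmic reticulum, was listed at 134, 837 and 1750 TPM, which are to the last digit the values of hsa_circ_0000190 of CNIH4 on chromosome 1. Its level can therefore not be told apart from that of the CNIH4 circRNA. In all, 53 circRNAs of the range shared all 3 values with another circRNA, 33 of them above 5 TPM in a line, and 32 of these 33 were at 0 in BEAS-2B and A549.

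The 5 host genes with most circRNAs in the range had 2 detected ones in all. BIRC6, a giant ubiquitin-conjugating inhibitor of apoptosis, had 163 entries, of which 14 exceeded 5 TPM in any line and none in all 3, and its highest in BEAS-2B reached 9.14 TPM. HSPG2, the matrix proteoglycan perlecan, had 134 entries, with 7 above 5 TPM in any line and none above 0 in HCC827. DYNC1H1, the heavy chain of cytoplasmic dynein, had 106 entries and 1 detected circRNA, and its mRNA was listed at the floor in all 3 lines, so the floor was not read as absence of an mRNA. PRKDC, the catalytic subunit of the DNA-dependent protein kinase, had 101 entries, of which 27 exceeded 5 TPM in a line and 1 was detected. Its entries in the range summed to 622, 445 and 379 TPM. GCN1L1, a regulator of translation, had 93 entries and none detected.

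Between A549 and BEAS-2B the detected circRNAs differed little as a set. The median ratio was 0.943 with quartiles at 0.637 and 1.27, and 301 of 683 were higher in A549. After scaling the median was 1.04. Over 5-fold higher in A549 were 8 circRNAs, against 1.16% of all 1988 detected circRNAs, and over 5-fold lower were 5, against 1.46%. With 8 of 683 (1.17%) and 5 of 683 (0.732%), the 10 to 50 kb circRNAs lay close to the background in the first direction and below it in the second. After scaling 9 were higher and 3 lower, beside 1.41% and 1.11% of all.

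The 8 circRNAs over 5-fold higher in A549 came from 8 hosts. hsa_circ_0083860 of GSR, glutathione reductase, was at 6.07, 90.4 and 65.7 TPM, and its ratio of 14.9 was the highest. hsa_circ_0009722 of PGD, the phosphogluconate dehydrogenase of the pentose phosphate pathway, was at 31.9, 473 and 73.8 TPM. hsa_circ_0040083 of NQO1, a quinone reductase, was at 74.0, 724 and 240 TPM. For these circRNAs of PGD and NQO1 the A549 library was far above the other lines, while for that of GSR both cancer lines were above BEAS-2B. Summed over all circRNAs of the host, PGD was at 87.6, 1269 and 73.8 TPM. The sums of NQO1 were 104, 1499 and 5811 TPM and thus highest in HCC827. hsa_circ_0081177 of PON2, a paraoxonase, was at 25.1, 247 and 55.8 TPM, and hsa_circ_0016667 of EPHX1, the microsomal epoxide hydrolase, at 23.5, 159 and 73.6 TPM. hsa_circ_0061105 of LAMA5, a laminin alpha chain of basement membranes, was at 6.41, 92.4 and 347 TPM, lowest in BEAS-2B and highest in HCC827. hsa_circ_0023305 of CCND1, the D-type cyclin that drives cells into S phase, was at 5.41, 43.9 and 40.8 TPM. The eighth was the ASPH circRNA of shared values, with a ratio of 6.23. The host mRNA of all 8 was at least 2-fold higher in A549, beside 10.5% of all mRNAs compared. Of the circRNAs of 1 to 10 kb over 5-fold higher in A549, 11 of 13 had such a host. Among the 8, PGD mRNA was at 52.3 FPKM in BEAS-2B and 716 in A549, NQO1 mRNA at 40.8 and 435, and GSR mRNA at 9.80 and 98.1.

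The lowest ratio of A549 to BEAS-2B, 0.142, was that of hsa_circ_0005609 of CLIC4, an intracellular chloride channel protein, at 669, 95.1 and 527 TPM. It was the only circRNA listed for its host. hsa_circ_0073492 of PAM, which amidates peptide hormones, was at 39.8, 6.35 and 106 TPM. hsa_circ_0024328 of NNMT, nicotinamide N-methyltransferase, was at 107, 21.5 and 70.7 TPM, which is just under a ratio of 0.2. In all 3 the A549 library was the lowest, and as deposited the HCC827 library was within 3-fold of BEAS-2B. After scaling the ratios of HCC827 to BEAS-2B were 0.279 for CLIC4, 0.946 for PAM and 0.233 for NNMT. The remaining 2 below 0.2, of TGFBI and RNF144B, are described further on. hsa_circ_0087884 of CTNNAL1 (194, 39.5 and 368 TPM), hsa_circ_0083665 of LOXL2, a lysyl oxidase of the matrix (125, 28.5 and 114 TPM), and hsa_circ_0040693 of the actin-binding COTL1 (38.3, 8.76 and 37.8 TPM) completed the lowest 8, at ratios of 0.203 to 0.229. The host mRNA of all 5 circRNAs below 0.2 was at least 2-fold lower in A549, beside 15.3% of all mRNAs compared. COTL1 was different, as its mRNA was listed at the floor in BEAS-2B and at 10.8 FPKM in A549. In the shorter classes, circRNAs below 0.2 had a host at least 2-fold lower for 5 of 5 under 1 kb and 6 of 16 of 1 to 10 kb.

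**Figure D2:**
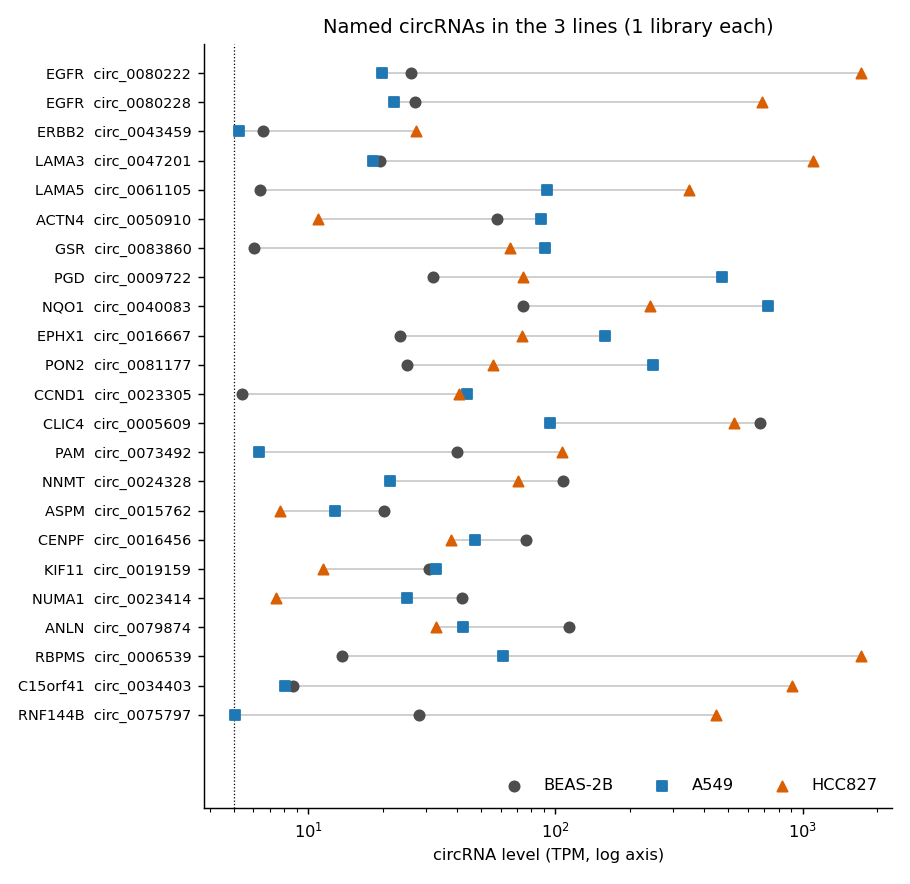
Level in TPM (log axis) of 23 named circRNAs in BEAS-2B (circles), A549 (squares) and HCC827 (triangles), 1 library each; the dotted line marks 5 TPM. The EGFR circRNAs stand at 19.95 to 27.1 TPM in the other lines and in HCC827 at 683 and 1712 TPM, and those of ASPM, NUMA1 and ANLN are lowest in HCC827.

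HCC827 differed more from BEAS-2B, and here the count depended on the scaling and on the level required in each line. As deposited, the median ratio was 2.43, and 556 of 683 circRNAs were higher in HCC827. Over 5-fold higher were 160 (23.4%), against 31.1% of all detected circRNAs, and over 5-fold lower were 3, against 0.755%. After scaling the median was 0.862, 303 of 683 were higher, 45 (6.59%) were over 5-fold higher beside 10.4% of all, and 40 (5.86%) were over 5-fold lower beside 6.74%. Against A549 the counts were 179 (26.2%) higher and 3 lower, beside 34.5% and 0.805%, and after scaling 41 and 45, beside 9.96% and 7.04%. Under both scalings the 10 to 50 kb circRNAs thus had a smaller share over 5-fold higher in HCC827 than all detected circRNAs. The median ratio of HCC827 to BEAS-2B went down with span class, from 6.49 under 1 kb (148 circRNAs) to 3.16 for 1 to 10 kb (922), 2.43 for 10 to 50 kb and 2.08 over 50 kb (131), an order that scaling by a constant cannot alter. The level at which circRNAs appear in HCC827 went down with span class too. The lowest 10% of values above 0 there lay under 83.7, 16.2, 3.14 and 0.00854 TPM, and in BEAS-2B under 1.19, 0.360, 0.0170 and 6.6e-05 TPM. The part of this in the order of the ratios was not tested.

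The order of circRNAs by this ratio is likewise the same under both scalings. The highest was hsa_circ_0006539 of RBPMS, an RNA-binding protein, at 13.7, 61.3 and 1723 TPM, which is 126-fold as deposited and 44.6-fold after scaling. Its mRNA was at 13.9, 30.3 and 41.4 FPKM. hsa_circ_0034403 of C15orf41 followed at 8.71, 8.09 and 902 TPM, and its mRNA was near the floor in BEAS-2B and A549 (1.57 and 1.67 FPKM) and at 4.96 in HCC827. hsa_circ_0011960 of FOXJ3, a forkhead factor, was at 13.7, 24.2 and 778 TPM, with mRNA at 19.2, 16.3 and 30.7 FPKM. hsa_circ_0001905 of EHMT1, a histone methyltransferase, was at 11.4, 7.68 and 578 TPM, although its mRNA went from 6.49 FPKM in BEAS-2B to the floor in A549 and HCC827. For these circRNAs HCC827 alone stood far above the rest. hsa_circ_0071728 of LPCAT1, an acyltransferase of lung surfactant lipid, was at 7.13, 8.97 and 394 TPM, with mRNA at 10.7, 13.2 and 363 FPKM, so that circRNA and mRNA had about the same pattern. The remaining 3 of the 8 highest were from EGFR, LAMA3 and LAMA5.

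The lowest ratio of HCC827 to BEAS-2B was that of hsa_circ_0074036 of TGFBI, at 260, 72.8 and 25.8 TPM. hsa_circ_0023414 of NUMA1, which organises the poles of the mitotic spindle, was at 41.9, 25.2 and 7.44 TPM, with mRNA at 34.2, 17.4 and 10.4 FPKM. hsa_circ_0050910 of ACTN4, an actin cross-linker, was at 58.1, 87.7 and 10.95 TPM. These 3 were under 0.2 as deposited. hsa_circ_0075299 of CANX, a chaperone of the endoplasmic reticulum, was at 137, 146 and 37.8 TPM. hsa_circ_0016213 of NUCKS1, a chromatin-associated protein, was at 698, 317 and 198 TPM, and hsa_circ_0079874 of ANLN, the contractile ring protein anillin, at 113, 42.2 and 33.1 TPM. hsa_circ_0026624 of the transcription factor SP1 was at 28.0, 17.1 and 8.21 TPM. HCC827 was the lowest of the 3 lines for all of these, and after scaling their ratios were between 0.0353 and 0.104.

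A few circRNAs were over 5-fold from BEAS-2B in both cancer lines. Higher in both were 4, those of CCND1, LAMA5, GSR and ASPH, and lower in both were 0. These counts were not set against those over all detected circRNAs. For CCND1, GSR and LAMA5 the BEAS-2B value, which both ratios share, was just above the detection level (5.41, 6.07 and 6.41 TPM). After scaling only LAMA5 stayed over 5-fold higher in HCC827 (19.2), while GSR was at 3.84, CCND1 at 2.67 and ASPH at 4.61. Another 2 went in opposite directions. hsa_circ_0074035 of TGFBI, a secreted matrix protein induced by TGF-beta, was at 81.6, 15.6 and 484 TPM. hsa_circ_0075797 of RNF144B, a ubiquitin ligase, was at 28.1, 5.08 and 444 TPM, and its value in A549 was barely above the detection level. The RNF144B circRNA was the only one listed for its host, whose mRNA was at 7.41, 1 (the floor) and 1.84 FPKM, so that the mRNA was lower in both cancer lines. After scaling the ratios of RNF144B were 0.1995 for A549 and 5.60 for HCC827, while those of TGFBI were 0.211 and 2.10 and thus no longer over 5-fold from BEAS-2B.

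**Figure D3:**
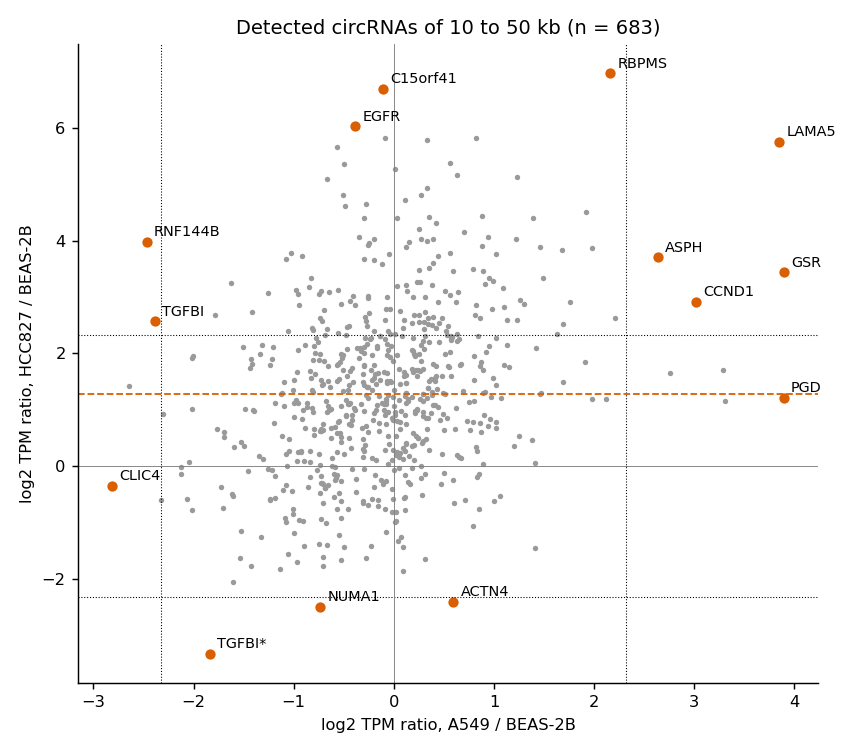
Log2 TPM ratio of HCC827 to BEAS-2B against that of A549 to BEAS-2B for the 683 detected circRNAs, as deposited. Dotted lines mark 5-fold, the dashed line the median HCC827 ratio (1.28 on the log2 scale), and the asterisk hsa_circ_0074036; LAMA5, GSR, CCND1 and ASPH lie over 5-fold higher in both lines, and RNF144B and the other named TGFBI circRNA are on opposite sides.

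Genes of receptor signalling to RAS, the pathway that the EGFR mutation of HCC827 acts on, had 202 circRNAs in the range. They came from 29 of 35 listed genes, and 5 were detected (2.48%), near the 2.27% over the range. In EGFR itself, hsa_circ_0080222 (chr7:55214298-55225446, plus strand) was at 26.1, 19.95 and 1712 TPM, and hsa_circ_0080228 (chr7:55229191-55270318) at 27.1, 22.3 and 683 TPM. Both were over 5-fold higher in HCC827 under either scaling (65.6 and 25.2 as deposited, 23.2 and 8.92 after scaling). The mRNA of EGFR was at 34.6, 27.0 and 1058 FPKM, and all 13 circRNAs of the gene summed to 141, 114 and 6170 TPM. Yet hsa_circ_0080221, which spans 22133 bases of the same gene, was at 15.5, 17.9 and 0 TPM. hsa_circ_0043459 of ERBB2, the partner receptor of EGFR, was at 6.59, 5.25 and 27.3 TPM, with mRNA at 4.53, 6.33 and 23.5 FPKM. The inhibitors of RAS were represented by hsa_circ_0042922 of NF1 (51.0, 58.1 and 247 TPM) and hsa_circ_0073250 of RASA1 (11.04, 7.66 and 44.0 TPM), both GTPase-activating proteins. These 2 were highest in HCC827 as deposited, but their mRNA was lowest there, with NF1 at 8.12, 10.6 and 2.22 FPKM and RASA1 at 9.77, 5.94 and 5.73 FPKM. The median ratio of HCC827 to BEAS-2B over the 5 was 4.83, or 1.71 after scaling, beside 2.43 and 0.862 over the detected circRNAs of the range.

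Adhesion and matrix genes gave the largest number of detected circRNAs of the 8 lists, 19 of 561 from 14 of 38 genes. This was 3.39%, beside 2.27% over the range, and the mitosis and centrosome list had a higher share (4.10%). Over 5-fold higher in HCC827 than in BEAS-2B were 6 of the 19, beside 31.1% of all detected circRNAs, and over 5-fold lower was 1, beside 0.755%. After scaling they were 3 and 2, beside 10.4% and 6.74%. The share of higher ones as deposited was thus near that of all detected circRNAs. Laminins, the cross-shaped proteins of basement membranes, gave 4 of the 6 higher ones as deposited. After scaling those of LAMA3 (20.1) and LAMA5 (19.2) stayed over 5-fold higher, while LAMB1 was at 2.28 and LAMC1 at 2.32. hsa_circ_0047201 of LAMA3 was at 19.4, 18.4 and 1103 TPM, hsa_circ_0081908 of LAMB1 at 27.2, 47.6 and 175 TPM, and hsa_circ_0015589 of LAMC1 at 11.7, 9.87 and 77.0 TPM. LAMA3 mRNA was at 4.67, 4.51 and 23.2 FPKM, so both readouts were highest in HCC827, though the circRNA by far more. hsa_circ_0016315 of LAMB3 was lower in level, at 6.99, 5.98 and 22.7 TPM, while its mRNA was at 2.47, 5.70 and 21.5 FPKM. hsa_circ_0015580 of LAMC1 was nearer to level, at 86.3, 74.7 and 153 TPM. Integrins are the receptors of this matrix. hsa_circ_0018144 and hsa_circ_0018148 of ITGB1 were at 168 and 286 TPM in BEAS-2B, 284 and 438 in A549, and 263 and 453 in HCC827, beside mRNA at 300, 408 and 532 FPKM. hsa_circ_0057082 of ITGA6 was at 16.6, 35.4 and 118 TPM, hsa_circ_0045680 of ITGB4 at 14.8, 19.7 and 31.3 TPM, and hsa_circ_0057326 of ITGAV at 11.3, 19.6 and 5.42 TPM. Of the proteins that link integrins and cadherins to actin, ACTN1 had circRNAs at 105, 76.3 and 62.4 TPM (hsa_circ_0032319) and at 149, 99.1 and 126 TPM (hsa_circ_0032326), and PXN, the focal adhesion scaffold paxillin, one at 48.7, 28.0 and 77.4 TPM.

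Genes of mitosis and the centrosome had the lowest median ratio of HCC827 to BEAS-2B of the 8 lists. Of 195 circRNAs in the range 8 were detected (4.10%, beside 2.27% over the range). Their median ratio to BEAS-2B was 0.626 for A549 and 0.619 for HCC827. The latter was 0.219 after scaling, with 4 of 8 over 5-fold lower, beside 6.74% of all detected circRNAs. hsa_circ_0015762 of ASPM, a spindle pole protein, was at 20.3, 12.8 and 7.71 TPM. hsa_circ_0016456 of CENPF, a kinetochore protein, was at 75.7, 47.5 and 37.7 TPM, and hsa_circ_0019159 of KIF11, the kinesin that separates spindle poles, at 30.9, 32.9 and 11.5 TPM. CENPF mRNA was at 110, 64.9 and 40.2 FPKM and KIF11 mRNA at 18.1, 7.44 and 3.98 FPKM. The 2 circRNAs of SMC2, a condensin subunit, were at 39.1, 21.8 and 47.0 TPM (hsa_circ_0087794) and at 57.7, 31.0 and 21.5 TPM (hsa_circ_0087796). hsa_circ_0019216 of CEP55 was at 54.9, 38.1 and 45.8 TPM, and hsa_circ_0085375 of RAD21, a cohesin subunit, at 49.5, 24.5 and 36.7 TPM. Only hsa_circ_0070915 of PLK4, the kinase of centriole duplication, was over 2-fold higher in HCC827 as deposited (11.3, 7.05 and 25.3 TPM), which after scaling was a ratio of 0.794.

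Chromatin regulators had 7 detected of 353 (1.98%, beside 2.27% over the range), with a median ratio of HCC827 to BEAS-2B of 1.90. Among them hsa_circ_0065138 of SETD2, the methyltransferase of histone H3 on transcribed genes, was at 15.9, 9.08 and 85.1 TPM, hsa_circ_0064136 of SETD5 at 14.8, 10.7 and 44.9 TPM, hsa_circ_0025217 of the remodeler CHD4 at 52.1, 24.1 and 75.3 TPM, and hsa_circ_0063496 of the acetyltransferase EP300 at 11.7, 10.2 and 9.01 TPM. Ubiquitin ligases had the lowest detected share of the 8 lists, 4 of 712 (0.562%, beside 2.27%), and none over 5-fold from BEAS-2B in either line. Among them were hsa_circ_0090800 of HUWE1 (18.2, 17.9 and 79.5 TPM) and hsa_circ_0081322 of SMURF1 (25.8, 22.1 and 102 TPM). Nuclear pore and transport genes had 7 of 563 detected (1.24%, beside 2.27%), with a median ratio of 2.23. They included hsa_circ_0055990 of RANBP2 (9.10, 17.6 and 92.1 TPM) and hsa_circ_0072235 of NUP155 (15.1, 14.3 and 104 TPM), both nuclear pore proteins. The import receptor IPO5 gave hsa_circ_0030677 (77.4, 38.7 and 34.1 TPM). RNA-binding and splicing genes had 6 of 256 detected (2.34%, near the 2.27% over the range), with a median ratio of 0.989, or 0.350 after scaling. As deposited, hsa_circ_0059579 and hsa_circ_0059601 of XRN2, a nuclear exonuclease, were nearly level over the lines. They stood at 43.6, 43.5 and 41.5 TPM and at 31.0, 29.8 and 31.9 TPM. After scaling their ratios of HCC827 to BEAS-2B were 0.337 and 0.364. hsa_circ_0014431 of ADAR, the editing enzyme that opposes back-splicing, was at 39.3, 32.3 and 12.8 TPM, although ADAR mRNA was at 23.2, 13.5 and 29.3 FPKM.

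Genes known as hosts of abundant circRNAs had few detected products in this size range. The 28 listed genes had 319 circRNAs in the range, of which 3 were detected (0.940%, beside 2.27% over the range). Among these were hsa_circ_0054019 of CRIM1 (29.3, 17.1 and 141 TPM) and hsa_circ_0068012 of FNDC3B (16.4, 16.0 and 113 TPM). The best-known circRNA of HIPK3 consists of a single exon and so spans less than the range. Whether circRNAs outside the range bear on the share of these genes was not tested.

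Within a host gene, the circRNAs of the range moved together from BEAS-2B to A549 but not from BEAS-2B to HCC827. Of the hosts, 51 had 2 detected circRNAs and 3 (TGFBI, JAK1 and ALCAM) had 3. For each of these 54 hosts the highest ratio was divided by the lowest, a quantity that no scaling of a library can change. For A549 against BEAS-2B the median of this quotient was 1.19, the highest was 2.47 in JAK1, and 3 hosts exceeded 2. For HCC827 against BEAS-2B the median was 2.41, 31 hosts exceeded 2 and 16 exceeded 5. In only 4 of the 54 hosts did the circRNAs compared share a start or an end.

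TGFBI was the widest case. Its hsa_circ_0074036 and hsa_circ_0074035 begin at the same position on chromosome 5, 135369451, and end at 135399507 and 135391505. The longer went from 260 TPM in BEAS-2B to 72.8 in A549 and 25.8 in HCC827, and the shorter from 81.6 to 15.6 and to 484. hsa_circ_0074037, which ends where the longer does, went from 75.6 to 30.4 and to 334 TPM. The remaining one above 5 TPM, hsa_circ_0074033, was at 86.5, 33.5 and 0 TPM. All were lower in A549 than in BEAS-2B, whereas in HCC827 2 were higher, 1 was lower and 1 was at 0. The mRNA of TGFBI was at 171, 58.5 and 197 FPKM, and all 14 circRNAs of the gene summed to 508, 158 and 844 TPM. In DNM2, the ubiquitous dynamin, hsa_circ_0049325 went from 18.5 and 16.1 TPM to 300.4 in HCC827 while hsa_circ_0049334 stayed at 21.6, 17.7 and 20.8 TPM. In CTNNB1, which encodes beta-catenin, hsa_circ_0064934 was at 6.37, 8.11 and 137 TPM and the longer hsa_circ_0064928 at 24.4, 17.97 and 53.0 TPM. In JAK1, a kinase of cytokine receptors, the 3 were at 33.1, 40.6 and 80.7 TPM, at 13.5, 17.6 and 165 TPM, and at 23.2, 12.3 and 307 TPM. In other hosts the detected circRNAs kept their proportions to each other in all lines, as in ITGB1 and XRN2 above and in PKM2. In PKM2 hsa_circ_0036195 was at 529, 572 and 307 TPM beside 666, 809 and 469 TPM for hsa_circ_0036183.

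**Figure D4:**
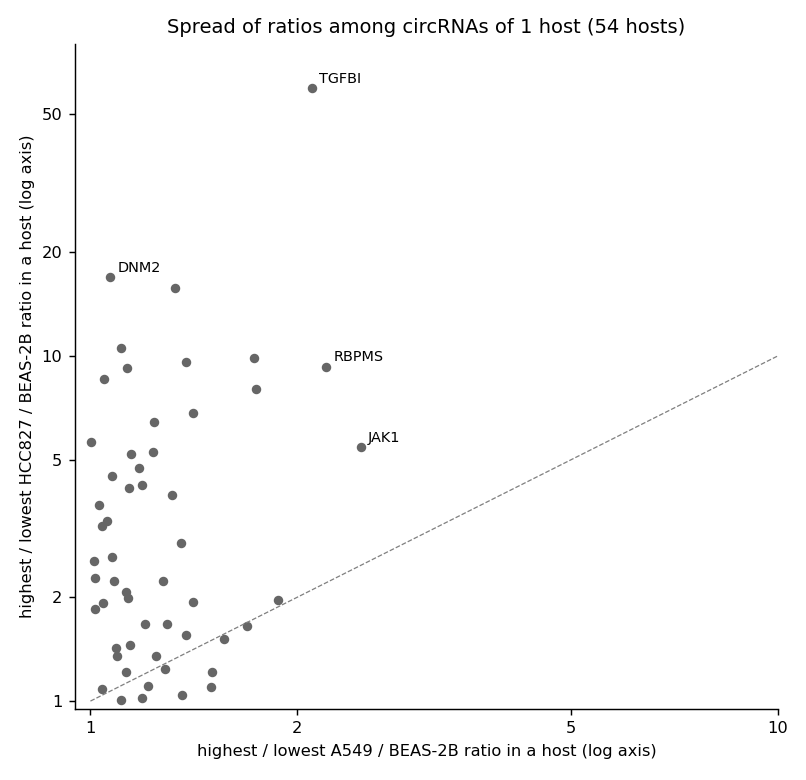
For the 54 hosts with 2 or 3 detected circRNAs, the highest ratio of a host divided by its lowest, for HCC827 over BEAS-2B (vertical, log axis) against A549 over BEAS-2B (horizontal, log axis); the dashed line marks equal spread. Most hosts lie above it, with medians of 2.41 and 1.19, and TGFBI is highest at 59.6.

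In HCC827 the signal of a host sat on few circRNAs. A detected circRNA held a median of 26.0%, 26.0% and 99.7% of the summed circRNA TPM of its host, and it was the most abundant of its host for 256, 257 and 448 of 683. The choice of circRNAs above 5 TPM in HCC827 favours this, so host genes were also compared by their sums. For the 406 host genes with circRNAs in the range whose circRNAs of any size summed to over 100 TPM in each line, a median of 6, 6 and 2 circRNAs exceeded 5 TPM, out of a median of 19 listed. The most abundant one held a median of 39.5%, 38.9% and 79.5% of the sum. A single circRNA above 5 TPM was found for 10, 12 and 133 of these hosts. Over those of these hosts with an mRNA value to compare, the median ratio of the sums was 0.893 for A549 to BEAS-2B (402 hosts) and 1.57 for HCC827 to BEAS-2B (403 hosts). Sequencing depth moves such counts, and its part was not tested because the depth is unknown.

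Many circRNAs well above the detection level in BEAS-2B and A549 were at 0 in HCC827. Above 50 TPM in both were 388 circRNAs of the range, and 285 of them (73.5%) were at 0 in HCC827, beside 77.3% over all circRNAs. Of all circRNAs of the range at 0 in HCC827, whatever their level in BEAS-2B, those with the highest mean of the other lines included hsa_circ_0087207 and hsa_circ_0087209 of ALDH1A1, a retinaldehyde dehydrogenase, at 21.5, 3142 and 0 TPM and at 10.5, 1899 and 0 TPM. Here the mRNA had the same pattern, at 19.2 FPKM, 2397 FPKM and the floor. This was not so for the rest of the 8 highest. hsa_circ_0035546 of ANXA2, a membrane-binding annexin, was at 909, 1162 and 0 TPM while ANXA2 mRNA was at 1418, 1140 and 637 FPKM, and hsa_circ_0035562 of the same gene was at 40.5, 0 and 1892 TPM. hsa_circ_0047083 of SNRPD1, a core protein of spliceosomal particles, was at 1038, 861 and 0 TPM with mRNA at 57.7, 51.8 and 37.1 FPKM, and it was the only circRNA listed for its host. hsa_circ_0082316 of UBE2H, a ubiquitin-conjugating enzyme, was at 728, 425 and 0 TPM with mRNA at 90.1, 45.3 and 98.4 FPKM. hsa_circ_0051243 of the ribosomal protein gene RPS19 (491, 1068 and 0 TPM), hsa_circ_0027956 of TXNRD1, thioredoxin reductase (339, 785 and 0 TPM), and hsa_circ_0053046 of the vesicle transport GTPase RAB10 (219, 789 and 0 TPM) also had mRNA above the floor in HCC827, at 26.0, 53.2 and 38.3 FPKM. Over the 281 of the 285 with a host value, the host mRNA difference of HCC827 from BEAS-2B had a median of -0.50 on the log2(FPKM + 1) scale, with 83 at least 2-fold lower and 13 at least 2-fold higher, beside 16.6% and 12.9% of all mRNAs compared. For 152 of the 285, the other circRNAs of the same host summed to over 5 TPM in HCC827.

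Of the 758 circRNAs of the range above 50 TPM in HCC827, 160 were at 0 in both other lines, beside 705 of 2746 over all circRNAs. Of the 160, 30 shared their values with another circRNA. Highest were hsa_circ_0087393 of AGTPBP1, a carboxypeptidase that trims tubulin, at 1339 TPM, hsa_circ_0026221 of the actin-binding LIMA1 at 987 TPM, hsa_circ_0031947 of ERO1L, an oxidase of the endoplasmic reticulum, at 980 TPM, hsa_circ_0066875 of TIMMDC1, an assembly factor of respiratory complex I, at 962 TPM and hsa_circ_0061282 of the deubiquitinase USP25 at 604 TPM. None of these hosts was silent in BEAS-2B. LIMA1 circRNAs summed to 900, 65.8 and 987 TPM, and TIMMDC1 mRNA was at 34.9, 36.3 and 31.2 FPKM. For 158 of the 160, the other circRNAs of the host summed to over 5 TPM in BEAS-2B. The host mRNA difference had a median of 0.09, with 23 of 159 at least 2-fold higher in HCC827 and 16 at least 2-fold lower, beside 12.9% and 16.6% of all mRNAs compared.

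The circRNA ratios followed the host mRNA closely in A549 and loosely in HCC827. Of the 683 detected circRNAs 679 had a host value. The median host difference on the log2(FPKM + 1) scale was -0.24 for A549 and -0.15 for HCC827 against BEAS-2B, and 0.03 for HCC827 against A549. Across circRNAs, which share hosts and libraries, the Spearman correlation of the log2 ratio with the host difference was 0.764 for A549 over BEAS-2B (675 circRNAs), 0.300 for HCC827 over BEAS-2B (676) and 0.321 for HCC827 over A549 (674). Levels behaved alike, with correlations of TPM with host FPKM of 0.599, 0.600 and 0.254. In A549, 48 circRNAs had a host at least 2-fold higher than in BEAS-2B, beside 10.5% of all mRNAs compared, and their median circRNA ratio was 2.35, while 100 had a host at least 2-fold lower, beside 15.3%, and a median ratio of 0.484. In HCC827, 93 had a host at least 2-fold higher, beside 12.9%, with a median circRNA ratio of 4.16 (1.48 after scaling), and 102 a host at least 2-fold lower, beside 16.6%, with a median of 1.72 (0.610). Both lines thus had higher circRNA ratios where the host mRNA was higher. Of the 159 circRNAs over 5-fold higher in HCC827 that had a host value, 38 had a host at least 2-fold higher and 17 a host at least 2-fold lower. Summing all circRNAs of a host did not close the gap between the lines, as over the hosts of detected circRNAs the Spearman correlation of the sums with the mRNA was 0.771 for A549 (618 hosts) and 0.326 for HCC827 (619 hosts).

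**Figure D5:**
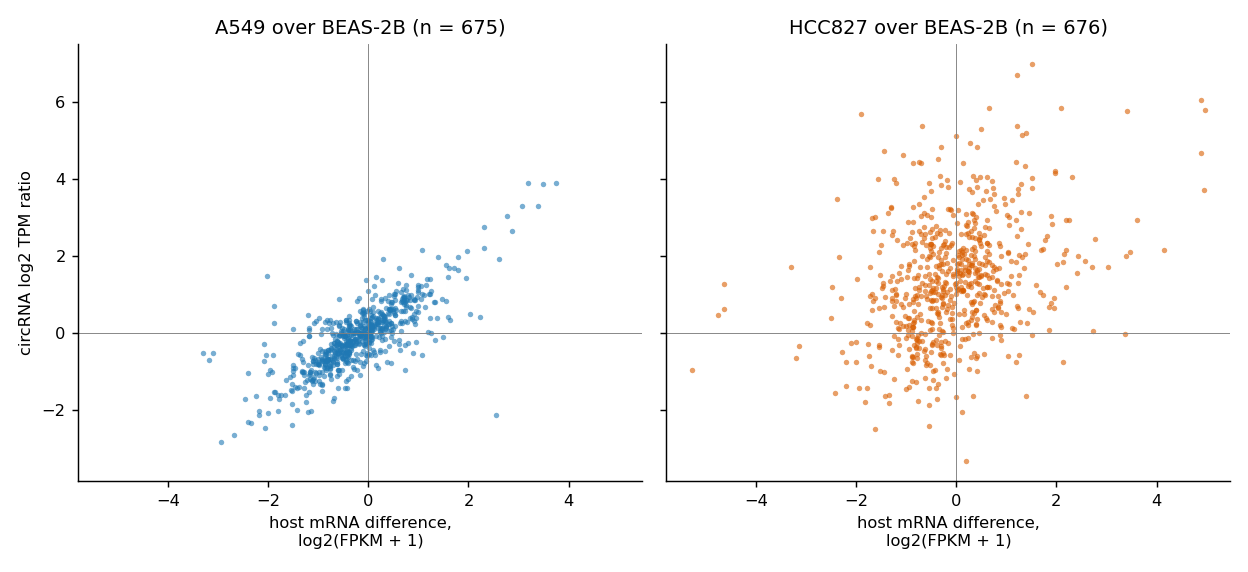
Log2 TPM ratio of detected circRNAs of 10 to 50 kb (vertical) against the host mRNA difference on the log2(FPKM + 1) scale (horizontal), for A549 over BEAS-2B (675 circRNAs) and HCC827 over BEAS-2B (676). The points follow a diagonal in A549 (Spearman 0.764) and a broad cloud in HCC827 (0.300).

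Of 16 genes of factors that form or remove circRNAs, 1 was at least 2-fold higher and 2 at least 2-fold lower in A549 than in BEAS-2B, beside 10.5% and 15.3% of all mRNAs compared. In HCC827 2 were higher and 2 lower, beside 12.9% and 16.6%. QKI, which promotes back-splicing, was at 74.1, 27.3 and 10.9 FPKM. The epithelial splicing factors ESRP1 and ESRP2 were at 49.3 and 15.1 FPKM in HCC827, with ESRP1 at the floor in BEAS-2B and A549 and ESRP2 at 3.12 and 1. EIF4A3, a core protein of the exon junction complex, was at 40.1, 33.0 and 13.4 FPKM. DHX9, which unwinds the intron pairs that favour circles, was at 106, 105 and 61.7 FPKM. Their part in the circRNA differences was not tested.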

How the data were processed

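The circRNA values were TPM deposited by the authors with identifiers, hosts and positions, and the program behind them is not given in the sources used here. The submitters' processing notes name the build hg19 and the programs kallisto, sleuth and FastQC 0.11.7, with no role for any. The mRNA values were FPKM deposited by the authors, made by trimming with PEAT, aligning with STAR 2.5.3a and assembling with Cufflinks 2.2.1 on GENCODE 21. For this the methods name the mouse build mm10. For RNA extraction they name RNeasy and the labels Trizol.

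Ratios were formed without a pseudocount, and scaling factors (0.734 for BEAS-2B, 0.665 for A549, 2.07 for HCC827) came from the median of ratios over 1988 circRNAs above 5 TPM in each line. Host differences used log2(FPKM + 1) for hosts above the floor of 1 in at least 1 line of a pair. Host names were matched by symbol, or by accession for 738 circRNAs, giving 30034 of 30154 a host value. The scaling and the 5-fold calls were run on simulated data with no zeros, small noise and large planted changes. The HCC827 library was sparser than that, so this checked the arithmetic and not the calls themselves. Python 3.11.15, pandas 2.3.3, numpy 2.4.6 and scipy 1.17.1 were used. All alternatives set at the start were run.

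The circRNAs and gene lists were chosen with earlier results of these data known. Named circRNAs were the 10 of highest mean, the 8 highest and 8 lowest ratios of A549 and of HCC827 to BEAS-2B among the detected, the 8 highest at 0 in HCC827, the 5 highest in HCC827 at 0 elsewhere, the 5 hosts with most circRNAs, and detected circRNAs of 8 host lists. Others, as of hosts with several detected circRNAs, were named after their values were seen. A few circRNAs that this rule selects are not reported here. Deposited lists of miRNA targets and networks, which hold the authors' fold changes, were not used here.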

Additional observations from a re-analysis of the deposited data

Results flagged for a closer look

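Detected circRNAs of 2 hosts were over 5-fold from BEAS-2B in opposite directions in the cancer lines, a difference that was not tested because each line had 1 library. As a ratio to BEAS-2B, hsa_circ_0074035 of TGFBI stood at 0.192 for A549 and at 5.93 for HCC827, and hsa_circ_0075797 of RNF144B stood at 0.181 for A549 and at 15.8 for HCC827. After median-of-ratios scaling the TGFBI circRNA was at 0.211 and 2.10, no longer over 5-fold from BEAS-2B in either line, and the RNF144B circRNA at 0.1995 and 5.60.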

How the results depend on the processing

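No replicate could be left out and no paired analysis was possible because each line had 1 library, and depth is unknown. Above 5 TPM in at least 1 line were 9430 circRNAs. Without the 1% most abundant circRNAs of the table, the shares of TPM were 26.96%, 26.99% and 30.35% in the order BEAS-2B, A549 and HCC827.

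For A549 against BEAS-2B, median-of-ratios scaling turned the median ratio to 1.04 and left 3 over 5-fold lower, and TPM + 1 left 2 lower. With 1 TPM in each line 20 were higher and 18 lower, with 10 TPM 5 and 3, and with 5 TPM in at least 1 line 686 and 626. For HCC827 against BEAS-2B, scaling turned the median to 0.862 and gave 45 higher, all among the 160, and 40 lower. With 1 TPM 298 were higher, with 10 TPM 83, and with 5 TPM in at least 1 line 788, with 6998 lower. Sums over the host gene, an alternative chosen after seeing the data, gave a median of 1.39, 99 higher and 48 lower, of which 56 and 1 were among the single circRNAs called. For HCC827 against A549, scaling turned the median to 0.836 and gave 41 higher and 45 lower. With 1 TPM 343 were higher, with 10 TPM 98, with 5 TPM in at least 1 line 832, with 6855 lower, and host sums gave a median of 1.44, 116 higher and 43 lower. Leaving out shared values or all but the most abundant circRNA of each host moved no count or median by over 1.5 times, and the median host mRNA differences kept their signs. Of 39 named ratios over 5-fold, 25 stayed so after scaling and 35 with TPM + 1, and none reversed.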
